A study of Mus musculus with 4 samples.

Results

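The genes described here encode 4 groups of lipid hydrolases and their relatives in the mouse colon, namely the phospholipases C, the phospholipases D, the patatin-like phospholipases (Pnpla) and the alpha/beta hydrolase domain (Abhd) enzymes. They were chosen by a rule on names, with earlier results of these data known. It takes every gene on the array whose symbol starts with Plcb, Plcd, Plce, Plcg, Plch, Plcl, Plcz, Pld, Pnpla or Abhd followed by a number. The rule matched 49 of the 30214 gene names on the array with 78 probes, and 44 of the 49 were well above background on at least 1 array. These 44 are 14 phospholipases C, 6 phospholipases D, 6 patatin-like enzymes and 18 Abhd genes. The other 5, Plcz1, Pnpla5, Abhd3, Abhd16b and Abhd11os, were not well above background on any array. Abhd11os is a transcript named for the strand opposite to Abhd11 and is not an enzyme.

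The RNA came from the colons of male Pla2g3+/+ (WT) and Pla2g3-/- (KO) littermates on the B6.129 (n3) background at 42 weeks of age. Pla2g3 encodes a secreted phospholipase A2, and the KO mice carry its null allele in the germline. Mice of each genotype received saline as the vehicle or the colon carcinogen azoxymethane (AOM) at 10 mg/kg intraperitoneally once a week for 6 weeks, and the colon was taken 28 weeks after the last injection. Each of the 4 groups is 1 pool of RNA on 1 one-color array, with 4 mice per pool by the methods and 3 to 5 by the deposited description, from the whole descending colon by the former and described as cancer tissue for the AOM groups by the latter.

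Since each group was a single array without replicates, every value below is a description of these 4 pools and none has a p-value. The share of spots well above background ran from 64.8% to 69.4%, and the SD of log2 signals between replicate spots of the same probe had a median of 0.057 to 0.066, a measure of the array that leaves out the mice. The scaled signal is the intensity as a multiple of the array's own 75th percentile, and a fold change is the ratio of 2 scaled signals, with 2-fold as the threshold. Pla2g3 itself was not lower in the KO pools. Its brightest probe gave scaled signals of 0.53 in WT and 0.653 in KO with vehicle, then 0.232 in WT and 1.39 in KO after AOM. Its other probes were not lower in KO either, with log2 KO/WT ratios of 0.08 and at least 1.21 with vehicle, and of 2.74 and 1.46 after AOM. No probe of the targeted gene thus followed the labels. The exons that the KO allele lacks were not set against the positions of these probes. They do not check the genotype, and WT and KO stand for the labels throughout.

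Phospholipases C cut phosphatidylinositol 4,5-bisphosphate (PIP2) into diacylglycerol, which activates protein kinase C, and inositol trisphosphate (IP3), which opens calcium channels of the endoplasmic reticulum. Phospholipases D release phosphatidic acid from phosphatidylcholine, and patatin-like and Abhd enzymes split acyl chains from phospholipids, triglycerides, monoacylglycerols or proteins. In the gut these reactions serve receptor signaling in epithelium, smooth muscle and immune cells and the turnover of stored fat.

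The members that moved farthest apart between the genotypes after AOM are introduced by their promoters, the bases just upstream of the start of the gene. RefSeq held such a window on GRCm38.p6 for 41 of the 44 members, and the farthest upstream start was used for genes with several. Abhd1, Abhd12 and Plcl2 have no window there. The 250 bases upstream of Plcl1 (chr1:55405696-55405945, plus strand) and Plcd1 (chr9:119093503-119093752, minus strand), the pair with the highest KO/WT ratios, and of Abhd15 (chr11:77514867-77515116, plus strand) and Plcg1 (chr2:160731060-160731309, plus strand), the pair with the lowest, are shown 5′ to 3′. Capitals mark the letters GGGCGG, the GC box bound by Sp1, on either strand.
Plcl1: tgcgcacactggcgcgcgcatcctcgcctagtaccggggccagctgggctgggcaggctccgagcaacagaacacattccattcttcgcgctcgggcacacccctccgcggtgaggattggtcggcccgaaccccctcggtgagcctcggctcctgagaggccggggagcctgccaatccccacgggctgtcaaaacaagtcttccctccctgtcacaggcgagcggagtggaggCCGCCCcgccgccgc
Plcd1: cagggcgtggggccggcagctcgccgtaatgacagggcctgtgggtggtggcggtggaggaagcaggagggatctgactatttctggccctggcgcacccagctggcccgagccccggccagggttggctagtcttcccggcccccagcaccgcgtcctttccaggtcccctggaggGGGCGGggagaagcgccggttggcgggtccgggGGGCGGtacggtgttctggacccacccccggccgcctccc
Abhd15: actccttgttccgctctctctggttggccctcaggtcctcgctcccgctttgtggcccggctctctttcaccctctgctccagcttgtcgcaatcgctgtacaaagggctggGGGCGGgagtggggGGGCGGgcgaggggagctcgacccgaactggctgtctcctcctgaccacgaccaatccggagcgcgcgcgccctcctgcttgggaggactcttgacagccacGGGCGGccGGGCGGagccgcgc
Plcg1: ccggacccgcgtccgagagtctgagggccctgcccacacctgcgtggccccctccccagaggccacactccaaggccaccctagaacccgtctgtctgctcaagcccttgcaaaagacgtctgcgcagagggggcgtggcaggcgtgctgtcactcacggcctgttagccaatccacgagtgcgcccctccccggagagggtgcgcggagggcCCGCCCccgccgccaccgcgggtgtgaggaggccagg
All 4 windows were rich in G and C, at 69.2% for Plcl1, 72.8% for Plcd1, 68.8% for Abhd15 and 71.2% for Plcg1. The median was 59.6% over the 41 member windows and 52% over all windows. Unlike the members, the windows of all genes were not filtered by detection, so the shares below compare unlike sets. GGGCGG on either strand occurred in 30 of the 41 member windows (73.2%) and in 33.0% of the 27025 windows of all genes. It was found in 7 of the 9 windows of members over 2-fold higher in KO after AOM, in 6 of the 7 of those over 2-fold lower and in 17 of the 23 of those within 2-fold. The letters CTTTGA, a core of TCF/LEF sites, were in 3 member windows (7.32%, against 14.1% of all windows), those of Abhd14b, Plch1 and Pnpla3. TATAAA was in 1 (2.44%, against 13.0%), that of Abhd17a, and CACGTG in 4 (9.76%, against 6.04%). The CArG box, the site of serum response factor in muscle genes, was in none of the 41 and in 1.41% of all windows. None of these motifs overlapped another in the windows shown, and a match is a run of letters and not a measured binding site.

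In the vehicle groups no member differed over 2-fold between the genotypes by its brightest probe. Of the 42 members with a value on both arrays, 0 were over 2-fold higher in KO, against 2.24% of the 20484 genes with a value, and 0 were over 2-fold lower, against 1.56%. Their log2 ratios had a median of 0.04 and an SD of 0.22, where the SD over all measured genes was 0.37. The ends of the range were Abhd2, a monoacylglycerol hydrolase, at -0.58 and Pnpla3, a lipase of lipid droplets, at 0.70. Only these 2 were past 0.5 in either direction. The scaled signal of Abhd2 was 0.355 in WT and 0.237 in KO, and that of Pnpla3 was 0.0258 and 0.0419, close to background on both arrays. The second probe of Pnpla3, well above background in KO only, was at least 2.94-fold higher in KO. The study's own values put Abhd13 over 2-fold higher in KO with vehicle, where its probe here gave a log2 ratio of -0.17. The reason for this difference was not tested.

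After AOM the genotypes stood apart. Of 42 members with a value, 11 were over 2-fold higher in KO (26.2%), against 14.4% of the 21580 genes with a value, and 8 were over 2-fold lower (19.0%), against 12.7%. The median log2 ratio of the members was 0.27 and that of all genes 0.02. The SD of the members' ratios was 1.14 and that of all measured genes 1.16, so their spread was near that of the array as a whole. The 11 higher members were Plcb1, Plcb3, Plcb4, Plcd1, Plce1, Plch2, Plcl1, Plcl2, Pld1, Abhd1 and Abhd14b. The 8 lower members were Plcg1, Plcg2, Pld2, Pld3, Pld4, Pnpla3, Abhd12 and Abhd15. The 4 that passed 4-fold, Plcl1, Plcd1, Plce1 and Plch2, were all higher in KO. The share of all genes past 4-fold was not counted, so their number has nothing to be set beside.

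**Figure D1:**
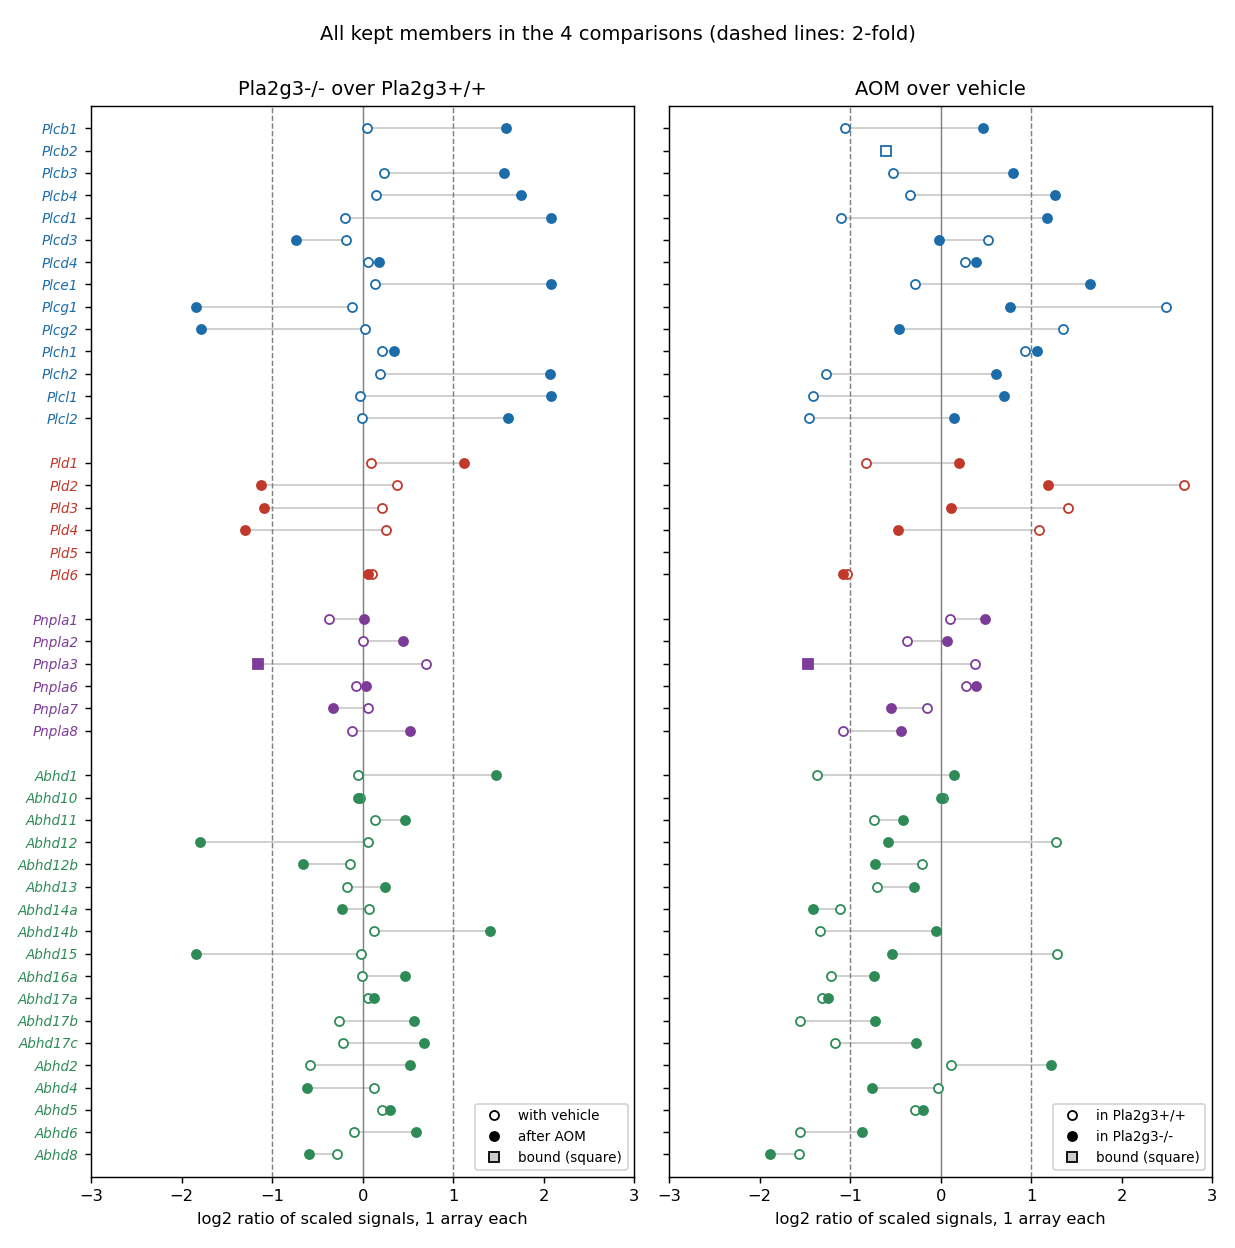
Log2 ratios of scaled signals for the 44 kept members, grouped by family, KO over WT on the left (open, vehicle, and filled, after AOM) and AOM over vehicle on the right (open, WT, and filled, KO), with 1 array per group and squares for bounds. With vehicle all KO/WT points lie between -0.58 and 0.70, and after AOM they reach from -1.84 to 2.08.

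Of the 13 phospholipases C with a value, 8 were over 2-fold higher in KO after AOM and 2, both gamma enzymes, were lower. Over the 21580 genes with a value, 14.4% were higher and 12.7% lower, the shares to set beside each family count below for KO/WT after AOM. Counting all classes but gamma, a grouping made after the values were seen, 8 of the 11 members with a value were over 2-fold higher in KO after AOM and 0 were lower, with a median log2 ratio of 1.60. With vehicle the same 11 lay between -0.20 and 0.23.

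The beta enzymes are the ones that G proteins of the Gq type activate. Plcb3 gave scaled signals of 6.33 in WT and 7.44 in KO with vehicle, and 4.38 and 12.9 after AOM, and was thus 2.95-fold higher in KO after AOM. Plcb4 gave 0.98 and 1.08 with vehicle and 0.777 and 2.61 after AOM, a 3.36-fold difference. For both, the KO pool after AOM was above the other 3 arrays, while the WT pool after AOM was the lowest of the 4. Plcb1 followed the same order at 0.222, 0.23, 0.107 and 0.319, with a ratio of 2.99-fold. Plcb2, found mainly in blood cells, was well above background in the WT vehicle pool only, at a scaled signal of 0.0191, and had no ratio between the genotypes.

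The delta enzymes respond to calcium and did not move as a class. Plcd1, read by a probe at chr9:118980738-118980797 on mm9, gave scaled signals of 3.32 in WT and 2.89 in KO with vehicle, and 1.54 and 6.51 after AOM, when the KO signal was 4.22-fold higher. Relative to vehicle it was 2.15-fold lower after AOM in WT and 2.25-fold higher in KO. It was the one member past 2-fold in opposite directions in the 2 genotypes. The share of all genes that did so was not counted. Plcd3 differed by -0.73 (log2, KO/WT after AOM) and Plcd4 by 0.18, both within 2-fold. The 4 probes of Plcd4 had very unequal signals. The brightest, chr1:74614298-74614357, gave an intensity of at least 18902 on every array and the other 3 of at most 23.7, so the values of Plcd4 rest on 1 probe.

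Plce1, an effector of Ras and Rap, gave scaled signals of 0.268 and 0.295 with vehicle, and 0.219 in WT and 0.924 in KO after AOM, a 4.21-fold difference (probe at chr19:38598456-38598515). It was the member with the largest rise after AOM in KO, 3.13-fold, while in WT its log2 change was -0.29. The eta enzyme Plch2 gave 1.46 and 1.67 with vehicle and 0.609 and 2.56 after AOM, 4.20-fold higher in KO (chr4:154357490-154357549). Here the fall in WT and the rise in KO were on either side of the vehicle level. The other eta enzyme, Plch1, was within 2-fold between the genotypes under both treatments, and its log2 change after AOM was 0.93 in WT and 1.07 in KO.

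Plcl1 and Plcl2 are relatives of phospholipase C without catalytic activity that bind IP3 and protein phosphatases. Plcl1 gave scaled signals of 0.129 and 0.126 with vehicle, and 0.0485 in WT and 0.205 in KO after AOM, the largest ratio among the members at 4.23-fold (probe at chr1:55753465-55753524). Plcl2 gave 5.89 and 5.87 with vehicle and 2.15 and 6.52 after AOM, 3.03-fold higher in KO. For Plcl2 the KO pool after AOM was near the vehicle pools, with a log2 change of 0.15, while WT was 2.74-fold lower than with vehicle. The members over 2-fold higher in KO thus fell into 2 sorts, 7 that were over 2-fold lower after AOM in WT (Plcb1, Plcd1, Plch2, Plcl1, Plcl2, Abhd1 and Abhd14b) and 4 that were within 2-fold there (Plcb3, Plcb4, Plce1 and Pld1). The same split over all genes over 2-fold higher in KO was not counted. The counts of 7 and 4 share the WT AOM array with the comparison of the genotypes and are no independent evidence. They also rest on the scaling between arrays, since without it the 7 lay between -0.44 and -0.04 for AOM/vehicle in WT.

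The gamma enzymes, which receptor and immune cell tyrosine kinases activate, went the other way. Plcg1 gave scaled signals of 0.328 in WT and 0.302 in KO with vehicle, and 1.85 and 0.516 after AOM (chr2:160588680-160588739). It was 5.64-fold higher after AOM than with vehicle in WT and 1.71-fold higher in KO, and 3.58-fold lower in KO than in WT after AOM. Plcg2, an enzyme of B cells and myeloid cells, gave 0.902 and 0.916 with vehicle and 2.30 and 0.664 after AOM, 3.46-fold lower in KO. For both genes the WT AOM pool stood above the other 3. The second probe of Plcg1 at chr2:160587142-160587201, gave log2 ratios of -1.69 for KO/WT after AOM and 2.25 for AOM/vehicle in WT. The third and dimmest, at chr2:160601437-160601496, gave a bound of -1.30 for the former and 0.58 for the latter, within 2-fold.

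**Figure D2:**
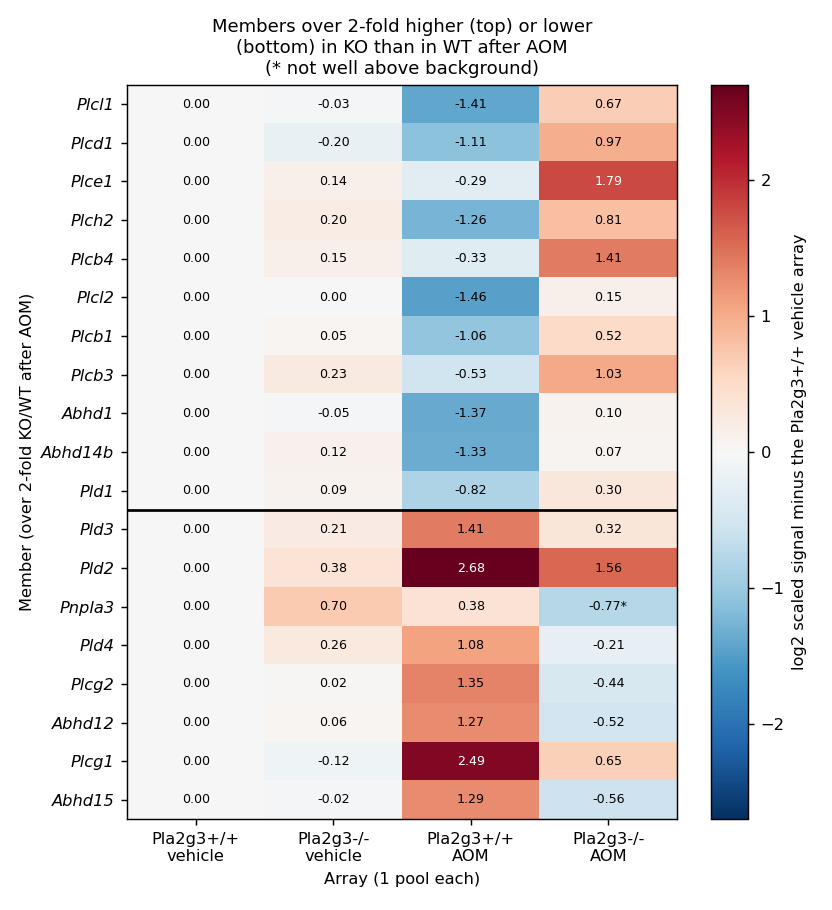
Log2 scaled signal on each of the 4 arrays minus that on the WT vehicle array, for the 11 members over 2-fold higher (above the black line) and the 8 over 2-fold lower (below) in KO than in WT after AOM. The vehicle columns differ by at most 0.70, for Pnpla3, 10 of the 11 upper members are at or below -0.33 in the WT AOM column with Plce1 at -0.29, and the 8 lower members are all above 0 there.

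Among the phospholipases D, Pld1 was higher and Pld2, Pld3 and Pld4 were lower in KO after AOM. Pld1 and Pld2 are the enzymes that make phosphatidic acid. Pld1 gave scaled signals of 2.92 and 3.11 with vehicle and 1.65 and 3.58 after AOM, 2.17-fold higher in KO. Pld2 gave 0.455 and 0.59 with vehicle and 2.92 and 1.34 after AOM, 2.18-fold lower in KO (chr11:70371548-70371607). It had the largest change of any member after AOM in WT, 6.43-fold higher, and was the only one over 2-fold higher after AOM in KO as well, at 2.27-fold. A second and much dimmer probe of Pld2 gave intensities of 86.1 in WT and 83.9 in KO after AOM and a log2 ratio of 0.13, so the lower value in KO was not seen with both probes.

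Pld3 and Pld4 are nucleases of lysosomes and endosomes rather than lipid hydrolases. Pld3 gave scaled signals of 1.19 and 1.38 with vehicle and 3.17 and 1.49 after AOM, 2.12-fold lower in KO. Pld4, found in macrophages and dendritic cells, gave 0.141 and 0.169 with vehicle and 0.299 and 0.122 after AOM, 2.45-fold lower in KO. Both stood highest in the WT AOM pool. Pld6, the mitochondrial member, did not differ between the genotypes by more than 0.11 on the log2 scale and was 2.05-fold lower after AOM in WT and 2.11-fold lower in KO. Pld5 was well above background in the WT AOM pool only and had no ratio, since its signal there was no more than the floor of the other arrays.

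Of the 6 patatin-like enzymes, only Pnpla3 was past 2-fold between the genotypes after AOM. Its scaled signal was 0.0337 in WT and not well above background in KO, at least 2.22-fold lower, and in KO it was at least 2.77-fold lower after AOM than with vehicle. Pnpla2, the lipase that starts the breakdown of stored triglyceride, gave 8.48 and 8.51 with vehicle and 6.54 and 8.93 after AOM, within 2-fold in all comparisons. Pnpla6 and Pnpla7, which cleave phosphatidylcholine and lysophosphatidylcholine, had log2 KO/WT ratios after AOM of 0.03 and -0.33, and Pnpla1, an enzyme of skin lipids, of 0.01. Pnpla8, a calcium-independent phospholipase A2 of mitochondria and peroxisomes, was 2.11-fold lower after AOM in WT and had a log2 KO/WT ratio of 0.52.

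The Abhd genes formed the largest group. Of its 18 members, 2 were over 2-fold higher in KO after AOM, 2 were lower and 14 were within 2-fold. Over all genes 14.4% were higher and 12.7% lower, so most genes on the array were within 2-fold as well. Abhd12, which hydrolyzes lysophosphatidylserine, gave scaled signals of 0.582 and 0.605 with vehicle and 1.40 and 0.405 after AOM, 3.47-fold lower in KO. Abhd15, a gene of adipocytes, gave 0.0548 and 0.0539 with vehicle and 0.134 and 0.0373 after AOM, 3.59-fold lower in KO, the lowest ratio among the members. Both were highest in the WT AOM pool. Abhd14b gave 7.47 and 8.12 with vehicle and 2.96 and 7.86 after AOM, 2.65-fold higher in KO. Abhd1 gave 0.222 and 0.215 with vehicle and 0.0862 and 0.238 after AOM, 2.77-fold higher in KO. For these genes the KO AOM pool was near the vehicle level, at log2 changes of -0.05 and 0.15.

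The other Abhd enzymes with a known substrate gave small ratios between the genotypes. Abhd6, a monoacylglycerol lipase that degrades 2-arachidonoylglycerol, had a log2 KO/WT ratio after AOM of 0.59, Abhd16a, which makes lysophosphatidylserine, of 0.47, Abhd4, which acts on N-acyl phospholipids, of -0.61, and Abhd5, the activator of Pnpla2, of 0.30. The depalmitoylases Abhd17a, Abhd17b and Abhd17c gave 0.13, 0.56 and 0.67, and Abhd10, a depalmitoylase of mitochondria, -0.05. Abhd2 gave 0.52. The remaining 5, Abhd8, Abhd11, Abhd12b, Abhd13 and Abhd14a, lay between -0.66 and 0.46.

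The comparison of AOM with vehicle within WT had more members lower than higher. Of 43 members with a value, 7 were over 2-fold higher (16.3%), against 14.7% of 21776 genes, and 16 were over 2-fold lower (37.2%), against 23.0%. The 7 were Plcg1, Plcg2, Pld2, Pld3, Pld4, Abhd12 and Abhd15. The Abhd group held 9 of the 16 lower members, among them all 3 Abhd17 genes, at log2 ratios of -1.31, -1.55 and -1.16, and Abhd6 and Abhd16a at -1.56 and -1.21. This direction rests on the scaling between arrays: without scaling 15 members were over 2-fold higher and 0 lower, since the AOM arrays were brighter as a whole, with 75th percentiles of 1312 and 1171 against 647.4 and 652.1. Of the genes called in this comparison over the array, 39.0% were higher with scaling and 86.5% without, and with quantile normalization and with normexp background correction it was 49.5% and 51.1%. Of the called members, 30.4% were higher with scaling, 100% without, and 40% and 46.2% with those settings.

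Within KO 11 members were past 2-fold with AOM. Of 42 with a value, 6 were over 2-fold higher (14.3%), against 10.3% of 20619 genes, and 5 were over 2-fold lower (11.9%), against 16.6%. The 6 were Plce1, Plcb4, Plcd1, Plch1, Pld2 and Abhd2, and the 5 were Abhd8, Abhd14a, Abhd17a, Pld6 and Pnpla3. Without scaling these counts were 15 and 1, no fewer in all than in WT, a share of 93.8% higher in place of 54.5%, and with normexp background correction 4 and 2, or 66.7%. Over the array 38.3% of the called genes were higher in KO, 89.3% without scaling and 49.7% with normexp.

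Within WT and within KO the comparisons use no array in common. Across the 42 members with both ratios, which are genes on the same arrays and not replicates, the log2 changes had a Pearson correlation of 0.26 and a Spearman correlation of 0.22, where those over the 19991 genes with both were 0.43 and 0.49. In 25 members (59.5%) the sign was the same and in 17 it was opposite, and over all genes it was the same in 70.8%. Pld2 was over 2-fold higher in both genotypes, and Abhd8, Abhd14a, Abhd17a and Pld6 were over 2-fold lower in both, 2.38% and 9.52% of the members against 4.44% and 8.94% of all genes. Abhd8 was the lowest of all in each, with scaled signals of 0.737 and 0.606 with vehicle and 0.248 and 0.164 after AOM, a fall of 2.97-fold in WT and 3.68-fold in KO.

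**Figure D3:**
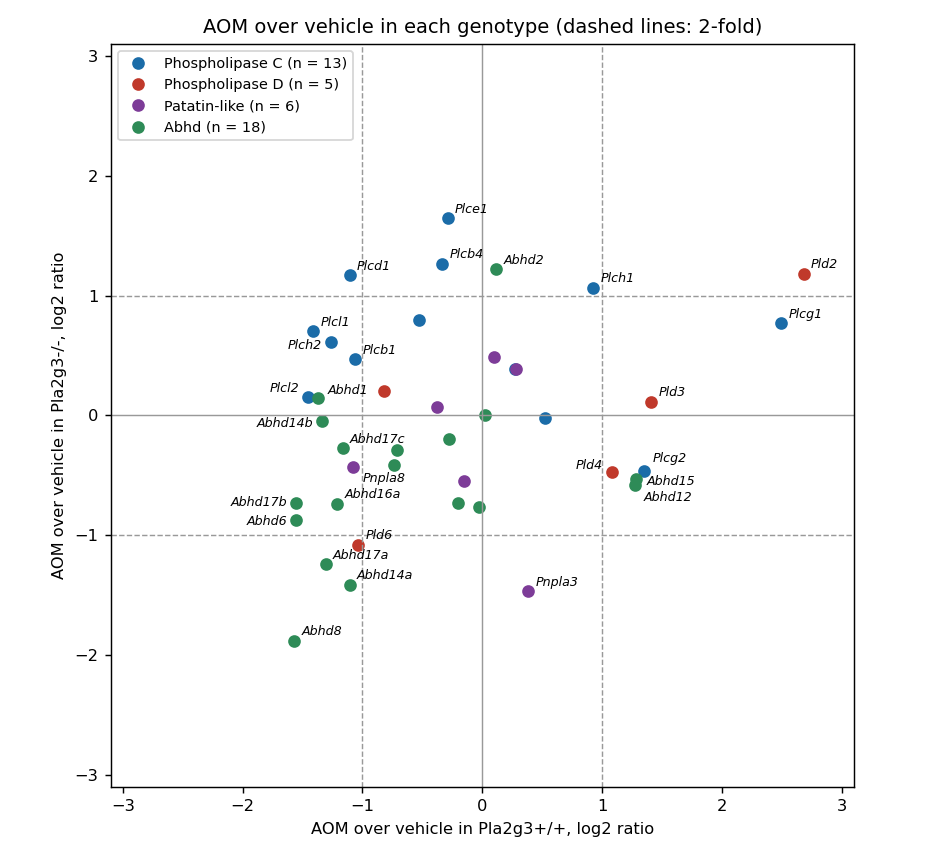
Log2 ratio of AOM over vehicle in WT (horizontal) and in KO (vertical) for the 42 members with both, colored by family, with names for those past 2-fold (dashed lines) in either. Pld2 is the one point beyond 2-fold higher on both axes, 4 points lie beyond 2-fold lower on both, and Plcd1 lies past 2-fold in opposite directions.

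Of the kept genes 19 had several probes, which gave a check within an array. For KO/WT after AOM, 12 of 15 genes with at least 2 valued probes had the same call with every probe, and the other 3 were Plcb1, Plcb4 and Pld2. The probe of Plcb1 that differed gave only a bound, a log2 ratio of at least 0.66, which does not go against a call past 2-fold. For AOM/vehicle in WT it was 10 of 15, the others being Abhd17a, Plcb1, Plcd4, Plcg1 and Pnpla3. It was 15 of 15 in KO and 12 of 13 for KO/WT with vehicle, where Pnpla3 differed. Plce1 gave 2.07 and 2.05 with its pair of probes and Plcl1 gave 2.08 and 2.35. The probes of Plcb4 ranged from 0.89 to 1.75. In no comparison did probes of 1 gene pass 2-fold in opposite directions.

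The genes that act before and after these enzymes were taken from 8 lists. For KO/WT after AOM, 14.4% of all genes were over 2-fold higher and 12.7% lower. These shares stand beside the counts for these lists and for the marker lists below. The protein kinases C, the targets of diacylglycerol, were higher in KO after AOM in 4 of 6 genes with a value and lower in 1, Prkcq, with a median log2 ratio of 1.60. Prkca gave scaled signals of 3.02 and 2.87 with vehicle and 0.782 and 3.37 after AOM, 4.31-fold higher in KO. The diacylglycerol kinases, which turn diacylglycerol into phosphatidic acid, were over 2-fold higher in 5 of 8 and lower in 0, with a median of 1.39, and Dgkh gave 0.646, 0.511, 0.212 and 0.957, a 4.51-fold ratio. With vehicle the medians of these lists were -0.19 and -0.08.

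Elsewhere in the pathway few genes passed 2-fold between the genotypes after AOM. Of the Gq alpha subunits 1 of 4 was higher (Gna11), and of the IP3 receptors 0 of 3 were past 2-fold. Of the kinases and synthases that supply PIP2, 1 of 12 was higher and 1 lower. The higher one, Cds1, which makes the CDP-diacylglycerol used for phosphatidylinositol, gave 1.11 and 0.964 with vehicle and 0.374 and 1.98 after AOM, 5.28-fold higher in KO. Of 6 phosphatidic acid phosphatases 0 were past 2-fold.

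Of the partners of neutral lipolysis, 4 of 9 were higher and 2 lower. Plin4, a coat protein of lipid droplets, gave scaled signals of 1.09 and 1.63 with vehicle and 0.0394 and 2.37 after AOM, 60.2-fold higher in KO. Plin5 went the other way, with 0.0435 and 0.0586 with vehicle and 0.234 in WT after AOM, and at least 15.5-fold lower in KO, where it was not well above background. Cideb, a protein of lipid droplets and lipoprotein assembly, was 4.20-fold higher in KO after AOM. Plin1, Cidec and Lipe, genes of adipocytes, were lower after AOM in WT by at least 10.4-fold, by 11.1-fold and by at least 4.21-fold. In KO, Plin1 and Cidec were lower after AOM as well, by 6.71-fold and 7.13-fold, and Lipe had no ratio. Of the monoacylglycerol and endocannabinoid genes 2 of 8 were higher in KO, and the monoacylglycerol lipase Mgll was 6.53-fold lower after AOM in WT and 3.26-fold higher in KO than in WT after AOM.

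Several cell type marker lists on the same arrays had ratios beyond the range of the members. The lists were chosen with earlier results of these data known. The AOM pools are whole descending colon by the methods and cancer tissue by the deposited description. Fewer cells of a type, less RNA per cell and a difference in the tissue taken cannot be told apart. All 10 smooth muscle markers were over 2-fold higher in KO than in WT after AOM, with a median log2 ratio of 4.15 and summed scaled signals of 518.7 and 543.9 with vehicle and 31.6 in WT and 499.8 in KO after AOM. The most abundant, Tagln, stood at 194 and 201 with vehicle and at 11.6 and 157 after AOM. All 8 colonocyte markers were higher as well (median 2.60, led by Guca2a at 4.83 in WT and 106 in KO after AOM), and 7 of 8 goblet cell markers (median 2.13, led by Zg16).

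Lower in KO after AOM were all 10 Wnt targets of colon tumors, with a median of -2.99 and summed scaled signals of 8.06 and 8.08 with vehicle and 70.8 in WT and 6.93 in KO after AOM, led by Wif1 at 19.5 and 0.0616. So were 7 of 8 macrophage markers (median -1.30, summed signals of 30.2 and 12.9, led by Csf1r), 5 of 7 B cell markers with 1 higher (median -2.42, led by Cd79b), 4 of 6 plasma cell markers (median -1.66, led by Igj) and 5 of 8 T cell markers (median -1.23, led by Lck). Of the 10 neutrophil markers 6 were over 2-fold lower and 2 higher, Ltf by 27.4-fold and Ly6g by 2.86-fold, with a median of -2.88, and the most abundant, Csf3r, was 1.21-fold higher in KO. In the WT AOM pool 9 of the 10 smooth muscle markers, and in the KO AOM pool 9 of the 10 Wnt targets, were well above background. The lower members included Plcg2 and Pld4, which immune cells express. Both were highest in the WT AOM pool, but so were Plcg1, Pld2, Pld3, Abhd12 and Abhd15. Summed macrophage and neutrophil markers were also highest there, at 30.2 and 95.4. Those of the lymphocyte lists went the other way in WT. From vehicle to AOM, B cell markers went from 3.12 to 1.06, plasma cell markers from 102.1 to 60.4 and T cell markers from 5.96 to 3.94. The 11 higher members had their lowest scaled signal in the WT AOM pool, as the summed smooth muscle, colonocyte and goblet cell markers did. Other epithelial lists did not. The tuft cell sum was lowest in the KO AOM pool, at 1.49, and the squamous epithelium sum in the KO vehicle pool, at 3.49. The part of these cell types in the members' ratios was not tested.

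Other lists moved less evenly. The adipocyte list, which shares Plin1 and Cidec with the lipolysis list, had a median of 1.46, that of enteric neurons 0.92 and that of proliferation -0.78, led by Cfd, Vip and Pcna. The tuft cell list had a median of -0.04. The squamous epithelium list had a median of 0.48, yet its most abundant gene Krt5 stood at 15.2 in the KO AOM pool and at no more than 0.0559 on the other 3 arrays. With vehicle, 10 of 12 pancreatic acinar markers were over 2-fold higher in KO (median 4.76, led in the KO vehicle pool by Amy2a5 at 34.6). Cela1, the most abundant over the 4 arrays, had a log2 ratio of -0.33. By its brightest probe no member differed over 2-fold in that comparison.

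**Figure D4:**
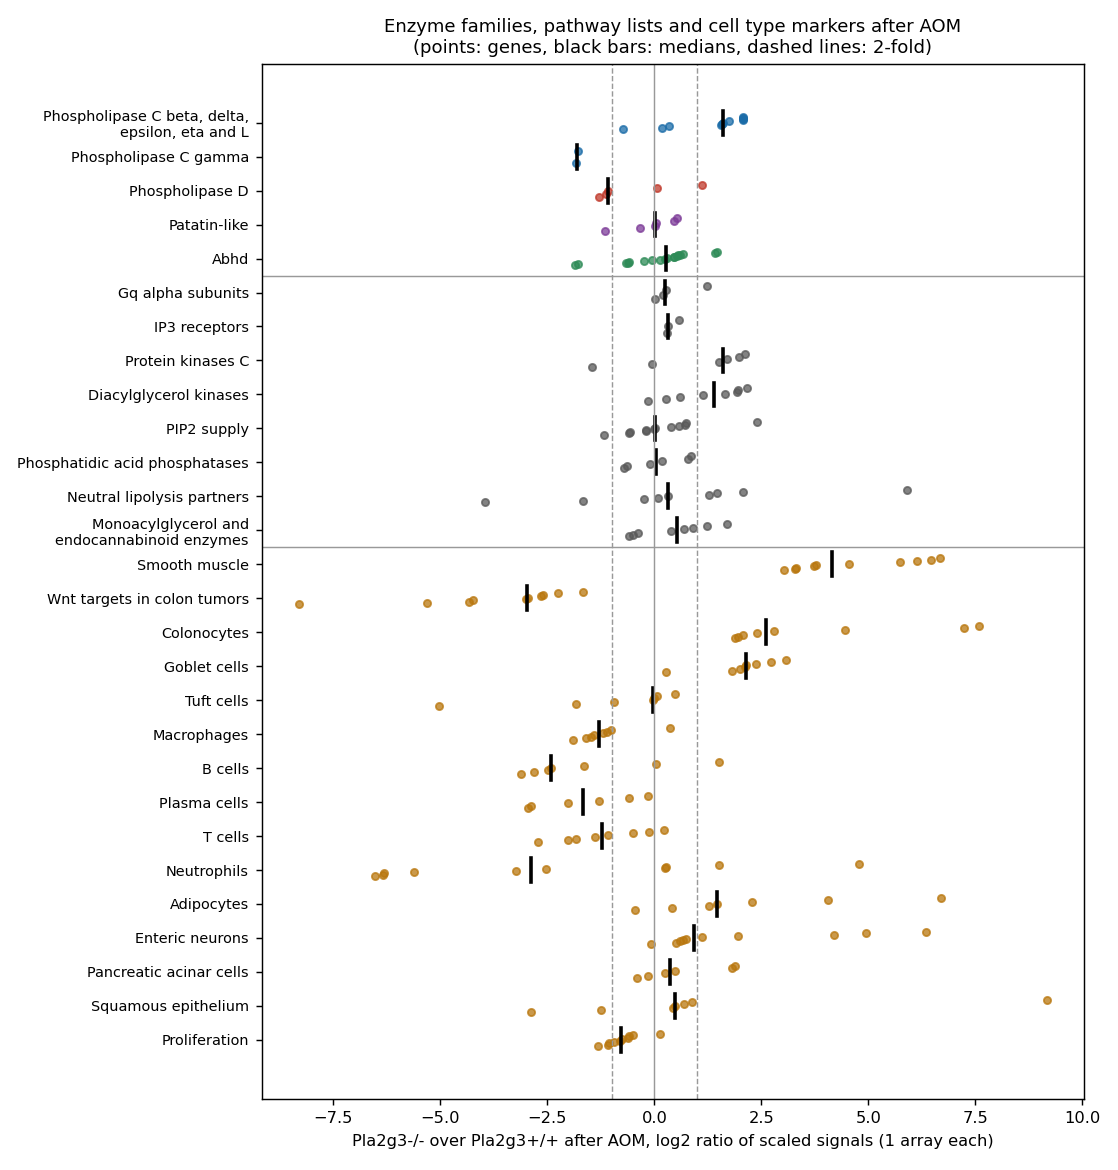
Log2 ratio of KO over WT after AOM for each gene (points, bounds included) of the enzyme families, the 8 pathway lists and the 15 cell type marker lists, with black bars for the medians and dashed lines for 2-fold. The members lie between -1.84 and 2.08, while the smooth muscle markers have a median of 4.15 and the Wnt targets one of -2.99.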

How the data were processed

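RNA from 4 pools of mouse colon, 1 per group, was hybridized to 4 one-color Agilent arrays with probes of 60 bases. The sample labels gave the groups. Spot intensity was deposited as Agilent Feature Extraction (version 11.5.1.1 in the submitters' processing notes) wrote it, after background subtraction and detrending but before any scaling between arrays. The authors also deposited a table of each intensity as a ratio to the 75th percentile of its array, used here as an alternative. Coordinates are those of the files, on mm9. No annotation of that build was used, so exons and introns are not given.

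Control and outlier spots were left out, log2 intensities of replicate spots were averaged into 39429 probes, and the 75th percentile over the spots of the array was subtracted. It was taken over spots after a first pass over averaged probes, a change made after seeing the data, and the first setting was kept as an alternative. A gene was read by its brightest probe over the 4 arrays. Of 49 matched genes, 43 were found in RefSeq by accession, all under the same symbol. Where only 1 array of a pair had the probe well above background, the other was set to the higher of its signal and the lowest detected signal, which gives a bound. The threshold was 2-fold in both directions. Precision is limited by the number of arrays, and single arrays allow no test. The members, gene lists and settings were chosen with earlier results of these data known. Signals on all 4 arrays are given for members past 4-fold or, with vehicle, past 2-fold, and further members were added after their values were seen. From pathway lists, genes past 4-fold after AOM are named, and from marker lists the most abundant, except for 1 list where it is not reported here.

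Alternatives were quantile normalization, no scaling, the median, normexp with an offset of 50 and quantile normalization (limma 3.58.1, R 4.3.3), all dim signals, genes detected on both arrays, the mean over probes, the second brightest probe and the deposited table. The calculation of ratios was tested on simulated data. The software was Python 3.11.15 with numpy 2.4.6, pandas 2.3.3 and matplotlib 3.10.9. Promoters came from RefSeq, and 5 motifs were searched on both strands.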

Additional observations from a re-analysis of the deposited data

Results flagged for a closer look

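Plcd1 moved in opposite directions with AOM in the 2 genotypes. The log2 ratio of AOM over vehicle was -1.11 in WT and 1.17 in KO, from 1 pool each, and the difference between them was not tested. How many of all genes did the same was not counted. With quantile normalization the value in WT was -0.96, and without scaling it was -0.09 and that in KO was 2.02.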

How the results depend on the processing

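With 1 array per group, no alternative stands in for replicate pools, and no paired analysis was possible because the groups share no replicate. Of the 53 member calls past 2-fold in the 4 comparisons, 21 were past 2-fold under every alternative that gave a value, among them 12 of 19 for KO/WT after AOM, 5 of 23 for AOM/vehicle in WT and 4 of 11 for AOM/vehicle in KO. Calls that came within 2-fold numbered 21 without scaling, 22 with normexp and quantile normalization, 4 with quantile normalization, 2 with the mean over probes and 3, Pld2 with a change of sign among them, with the second brightest probe. Scaling by the median, all dim signals, detection on both arrays, the deposited table and the percentile over averaged probes, the last chosen after seeing the data, moved no call that they gave a value for within 2-fold. Some of these outcomes were fixed in advance. For the 25 kept genes with 1 probe, the mean over probes and the second brightest probe reuse that probe. The deposited table holds the same intensities over the same percentile. Calls kept under these settings are thus no added support.

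Without scaling the median of all genes moved by 1.05 for AOM/vehicle in WT, 0.84 in KO and -0.16 for KO/WT after AOM. The members' median was then 0.082 for KO/WT after AOM, 0.69 for AOM/vehicle in WT, with 15 members higher and 0 lower, and 0.81 in KO, with 15 higher and 1 lower. Quantile normalization moved the median of all genes by 0.20 in WT and 0.13 in KO, and the members' median was -0.26 in WT. With normexp the lower members numbered 5 for KO/WT after AOM, 7 for AOM/vehicle in WT, with a median of -0.19, and 2 in KO. With all dim signals the median for AOM/vehicle in KO was -0.27. With the mean over probes, and with the second brightest probe, 1 member, Pnpla3, was higher for KO/WT with vehicle. With the second brightest probe the median for AOM/vehicle in WT was -0.46, and Pld2 turned sign for KO/WT after AOM, to 0.13. Except for the shift of all genes with scaling and the change of probe, which are built into those settings, the cause was not tested. Signals near background limit Plcb2, Pld5 and Pnpla3.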
